A study of Mus musculus with 4 samples.

Results

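The 10 chemokine ligands described here are 9 members of the CXC family (Cxcl1, Cxcl2, Cxcl5, Cxcl9, Cxcl10, Cxcl12, Cxcl14, Cxcl16 and Pf4) and the CX3C ligand Cx3cl1. They were chosen by name, and all 10 had 1 probe set each with that gene as its only symbol, out of 19938 named genes on the array. RNA was profiled from 3 heart samples labelled MAFbx KO and 1 labelled wild type (WT), all 4 taken 1 week after transverse aortic constriction (TAC), an operation that raises the pressure against which the left ventricle pumps. MAFbx, encoded by Fbxo32, is a muscle F-box protein that picks substrates for an SCF ubiquitin ligase. Both genotypes had the operation, hearts without TAC were not analysed here, and the labels give no strain, age or sex. The values are log2 probe set signals from Affymetrix Mouse Gene ST arrays, so a difference of 1 is a change of 2-fold.

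Chemokines are small secreted or membrane-bound proteins that guide leukocytes along a concentration gradient through G protein-coupled receptors. Ligands with a Glu-Leu-Arg motif before the CXC cysteines, such as Cxcl1, Cxcl2 and Cxcl5, attract neutrophils through Cxcr2, and their genes are classical targets of NF-kB. Cxcl9 and Cxcl10 are induced by interferon and attract activated T and NK cells through Cxcr3. Cxcl12 is made constitutively by stromal cells and signals through Cxcr4, while Cxcl16 and Cx3cl1 are made as membrane proteins and can be shed.

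The 11 cardiomyocyte markers read between 11.52 and 14.02 on every array, so the defining genes of heart muscle were present on all 4. Fbxo32 read 5.65, 5.61 and 5.56 in KO 1, KO 2 and KO 3, against 7.54 in WT 1. Even so, Fbxo32 did not pass the adjusted limma p of 0.05 used below. Failing that threshold therefore does not show that a gene is unchanged. The arrays also divided by sex-linked transcripts: Xist read 9.18 and 9.52 in KO 1 and KO 2 but 3.20 in KO 3, against 4.13 in WT 1, and Eif2s3y read 3.31, 3.64 and 8.49 in the same KO order, against 8.57 in WT 1. KO 1 and KO 2 therefore stand apart from KO 3 and WT 1, and each ligand below is given for KO 3 alone as well. Because WT has 1 array, every test takes its spread from the KO arrays, and whether each sample was a separate animal is not stated outright. In a whole heart, fewer cells of a type and less RNA per cell cannot be told apart.

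Across the ligands, the neutrophil attractant Cxcl5 and the platelet chemokine Pf4 showed the widest gaps between genotypes that were repeated on every KO array. Both read lower in the MAFbx KO hearts by more than 1 on the log2 scale, with the 3 KO arrays within 0.16 of each other, although the KO values of Cxcl5 lay under the level used to leave out dim genes. Cxcl14 was also lower on every KO array, but its KO values were spread over 0.86. None of the 9 ligands tested passed an adjusted p of 0.05 with limma, where 0.00671% of all 14914 genes tested did, or 1 gene. At an adjusted p under 0.1 the count was again 0, where 0.0738% of all genes were lower. With a threshold of 0.05 on the unadjusted limma p, 3 ligands were lower (Cxcl5, Pf4 and Cxcl14) and 0 higher, against 4.05% lower and 1.68% higher over all genes. Cxcl5 met the filter only through its WT value, so its place in that count is no support, and Pf4 and Cxcl14 remain without it. Limma with an intensity trend and robust limma also called 0 ligands.

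**Figure D1:**
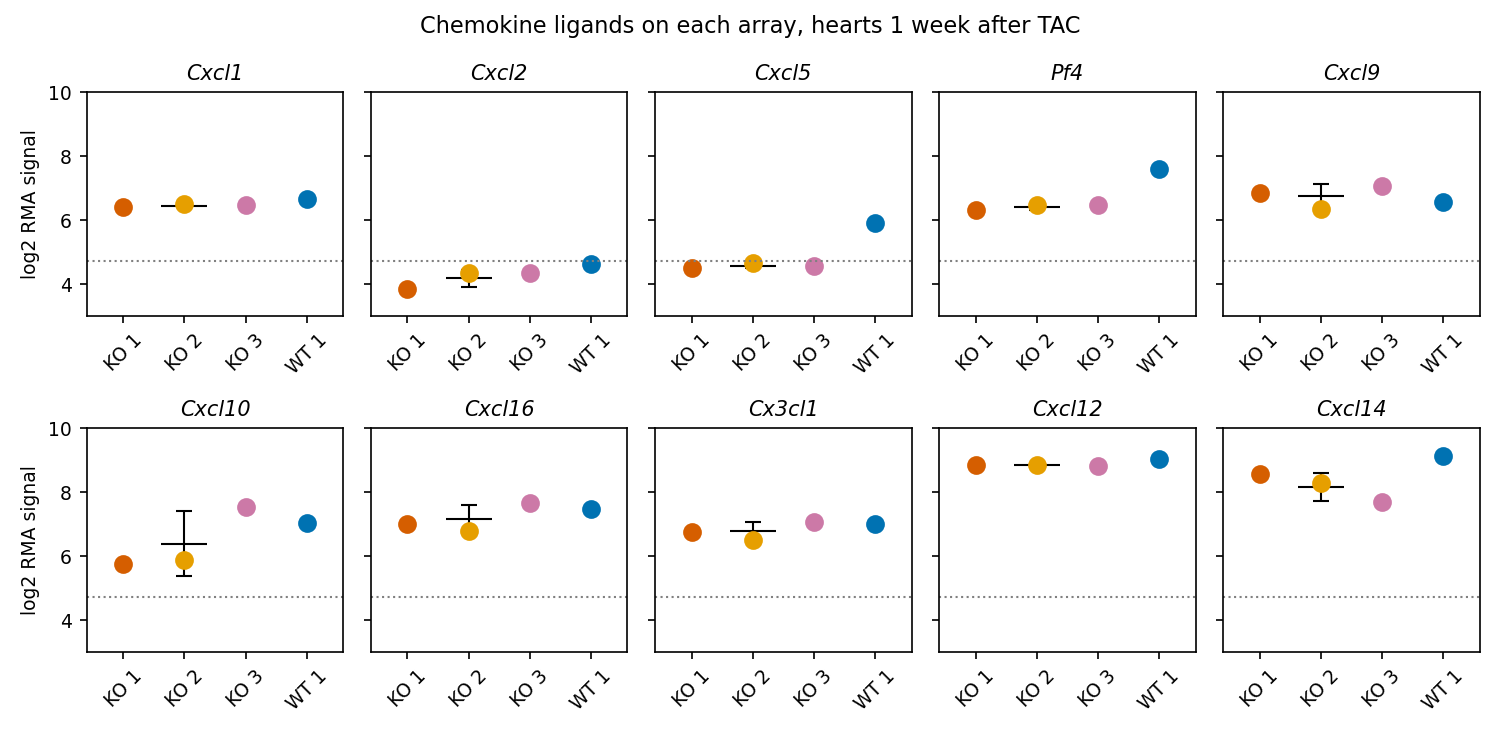
Log2 signal (y axis) of each of the 10 ligands on KO 1, KO 2, KO 3 and WT 1 (x axis). Points are arrays, the black bar is the KO mean with its SD (n = 3), and the dotted line is the level of 4.71 under which a gene's 4-array mean was left out of the test; Cxcl5 and Pf4 show the WT point well above 3 close KO points.

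Cxcl5, a neutrophil attractant also known as LIX in the mouse, read 4.50, 4.66 and 4.56 in the KO hearts, against 5.91 in the WT heart. All 3 KO arrays lay below the WT array by at least 1.25. All 3 KO values also lay under the 4.71 filter level, where a signal is not shown to be above background, so Cxcl5 entered the test only through its WT value. The log2 difference of -1.34 (SE 0.18, 95% interval -1.75 to -0.92, limma adjusted p = 0.131) is given as a description for that reason, with no fold.

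Cxcl1, the ligand called KC in the mouse, read 6.40, 6.49 and 6.46 in the KO hearts, against 6.67 in the WT heart. Each KO array was lower, by 0.18 to 0.27, and the log2 difference was -0.22 (SE 0.17, 95% interval -0.62 to 0.18, limma adjusted p = 0.945). Cxcl2, known as MIP-2, read 3.86, 4.34 and 4.34 in the KO hearts, against 4.63 in the WT heart. It lay below the filter level on all 4 arrays and was not tested with the others. Without the filter its log2 difference was -0.45 (SE 0.24, limma adjusted p = 0.959). The 3 neutrophil attractants read lower on every KO array, where 24.6% of all genes tested did. Of these only Cxcl1 lay above the filter level on all 4 arrays, and its interval included 0.

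Pf4, platelet factor 4, is stored in platelet granules and in the mouse is also expressed by macrophages. It read 6.32, 6.48 and 6.46 in the KO hearts, against 7.61 in the WT heart. The groups did not overlap, the smallest gap was 1.13, and the KO mean of 6.42 ± 0.09 (SD, n = 3) was 2.28-fold lower than WT. The log2 difference was -1.19 (SE 0.18, 95% interval -1.61 to -0.77, limma adjusted p = 0.214), ranking 18 by p among the genes tested. In KO 3 alone the difference from WT was -1.15 for Pf4, about as large between the arrays with low Xist as over all 4. For Cxcl5 it was -1.35, but its KO values lay under the filter level, so their closeness is no support.

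**Figure D2:**
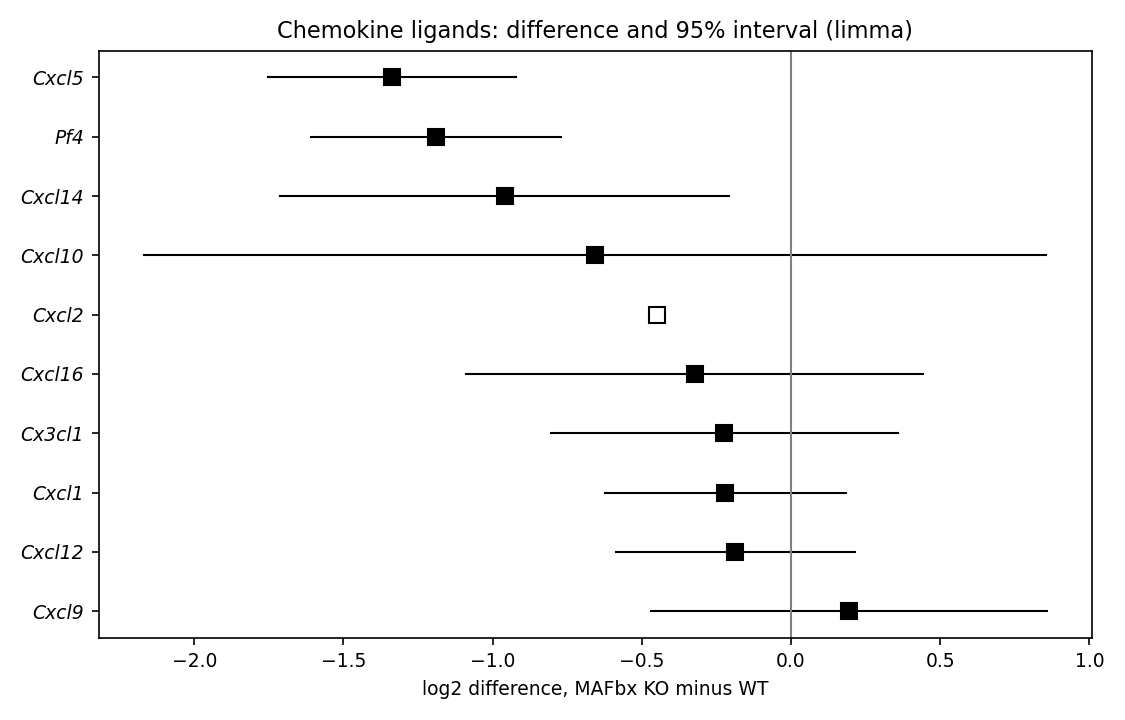
Log2 difference, MAFbx KO minus WT (x axis), for the 10 ligands, ordered from the lowest at the top. Filled squares are limma estimates with 95% intervals over 3 KO arrays and 1 WT array. The open square is Cxcl2, which was below the filter. The intervals of Pf4 and Cxcl14 lie below 0. That of Cxcl5 does too, but it met the filter only through its WT value and is no support.

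Cxcl9, induced by interferon-gamma, read 6.85, 6.35 and 7.06 in the KO hearts, against 6.56 in the WT heart. The WT array lay inside the KO range, and the log2 difference was 0.19 (SE 0.28, 95% interval -0.47 to 0.86, limma adjusted p = 0.992). Cxcl10, induced by interferons and by NF-kB, read 5.75, 5.88 and 7.55 in the KO hearts, against 7.05 in the WT heart. KO 1 and KO 2 were lower by 1.30 and 1.17 and KO 3 was higher by 0.50, so the KO range of 1.80 was the widest among the ligands. Its log2 difference of -0.66 (SE 0.64, 95% interval -2.17 to 0.86, limma adjusted p = 0.964) is therefore the mean of arrays that lie on both sides of WT.

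Cxcl16, a membrane-bound ligand of Cxcr6 that also takes up oxidised lipoprotein, read 7.01, 6.78 and 7.65 in the KO hearts, against 7.47 in the WT heart. Cx3cl1, the membrane-bound ligand fractalkine found on endothelium, read 6.75, 6.50 and 7.08 in the KO hearts, against 7.00 in the WT heart. For both, KO 1 and KO 2 were lower than WT and KO 3 was slightly higher. The log2 differences were -0.32 for Cxcl16 (SE 0.32, 95% interval -1.09 to 0.44, limma adjusted p = 0.965) and -0.22 for Cx3cl1 (SE 0.25, 95% interval -0.80 to 0.36, limma adjusted p = 0.970). Cxcl10, Cxcl16 and Cx3cl1 were the 3 ligands with KO 1 and KO 2 below and KO 3 above WT, a pattern held by 9.84% of all genes tested and counted after seeing the data. It follows the division by Xist, and the part of sex in it was not tested. Over all genes tested, KO 3 was also the KO array closest to WT 1. Its Pearson r with WT 1 was 0.984, against 0.969 for KO 1 and 0.975 for KO 2.

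**Figure D3:**
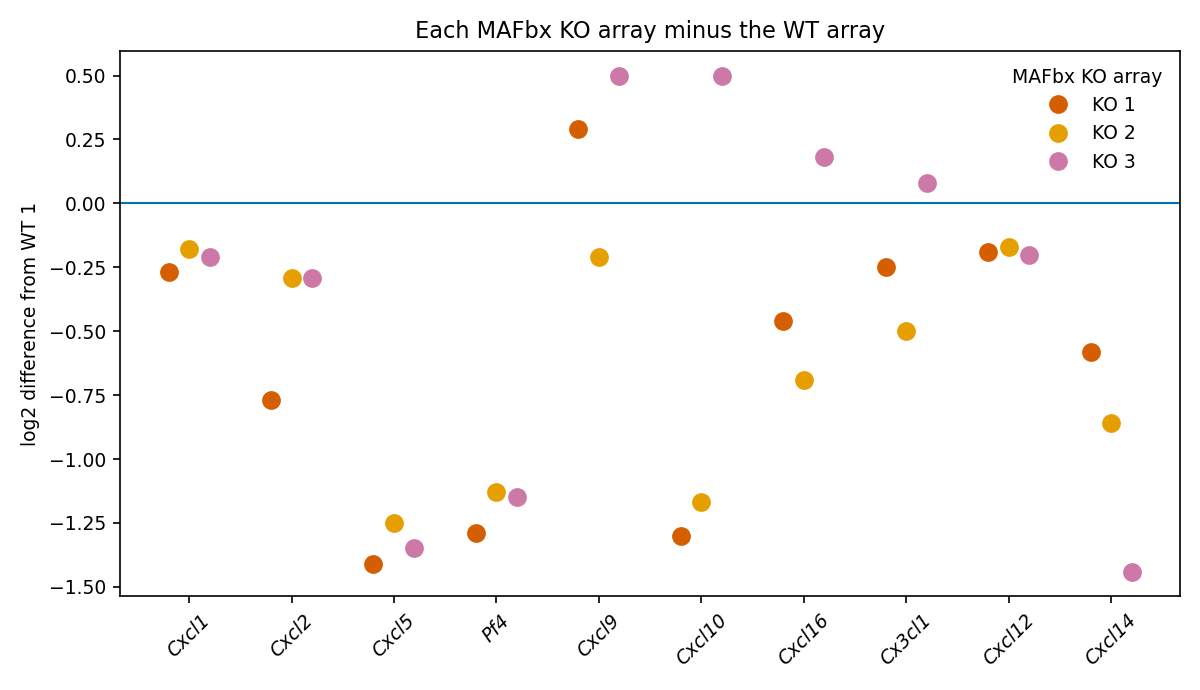
Log2 difference of each MAFbx KO array from WT 1 (y axis) for the 10 ligands (x axis), with the WT level at 0. Points of Cxcl5, Pf4, Cxcl1 and Cxcl12 lie close together, those of Cxcl5 from KO values under the filter level. KO 3 lies above 0 and KO 1 and KO 2 below it for Cxcl10, Cxcl16 and Cx3cl1.

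Cxcl12, the stromal ligand of Cxcr4 that retains progenitor cells in marrow, varied least among the KO arrays. It read 8.83, 8.85 and 8.82 in the KO hearts, against 9.02 in the WT heart. All KO arrays were lower by 0.17 to 0.20, a log2 difference of -0.19 (SE 0.17, 95% interval -0.59 to 0.21, limma adjusted p = 0.957). Cxcl14, a ligand made constitutively in many epithelia, read 8.55, 8.27 and 7.69 in the KO hearts, against 9.13 in the WT heart. Here KO 3 was the farthest from WT, at -1.44, against -0.58 in KO 1. The log2 difference was -0.96 (SE 0.32, 95% interval -1.71 to -0.21, limma adjusted p = 0.688).

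Of the 10 ligands, 6 had all 3 KO arrays below the WT array and 0 had all 3 above, where 24.6% of all genes tested lay below and 23.9% above. Among the 9 tested ligands 5 lay below, and their median log2 difference was -0.32, against 0.0033 over all genes tested. Without KO 3, 9 of the 10 ligands lay below WT on both remaining arrays, against 35.1% of all genes, and the median of the tested ligands was -0.57. Cxcl5 met the filter only through its WT value, and Cxcl2 lay below the filter level on all 4 arrays. Their place in these counts is therefore no support. Some of these ligands share inducers, and all are set against the same WT array, so the counts describe these 4 arrays and are not a test.

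Cxcl5, Ppbp, Pf4, Cxcl3, Cxcl15, Cxcl1 and Cxcl2 follow each other in that order on mouse chromosome 5, with no other protein-coding gene between them in the GRCm38.p6 gene table. Ppbp, the platelet basic protein precursor, read 6.09, 5.91 and 6.32 in the KO hearts, against 7.18 in the WT heart. Its log2 difference was -1.07 (SE 0.21, limma adjusted p = 0.370). The neighbours Cxcl5, Ppbp and Pf4 thus each gave a difference below -1, with Cxcl5 dim on the KO arrays, while the 4 genes after them differed by -0.45 to 0.27. Of those 4, Cxcl3 (4.21, 3.85 and 4.11 in KO hearts, against 4.21 in the WT heart) and Cxcl15 (3.40, 3.22 and 3.30 in KO hearts, against 3.04 in the WT heart) lay below the filter level along with Cxcl2. Cxcl1, Cxcl2 and Cxcl3 are close paralogs, and whether their probes share signal was not tested.

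**Figure D4:**
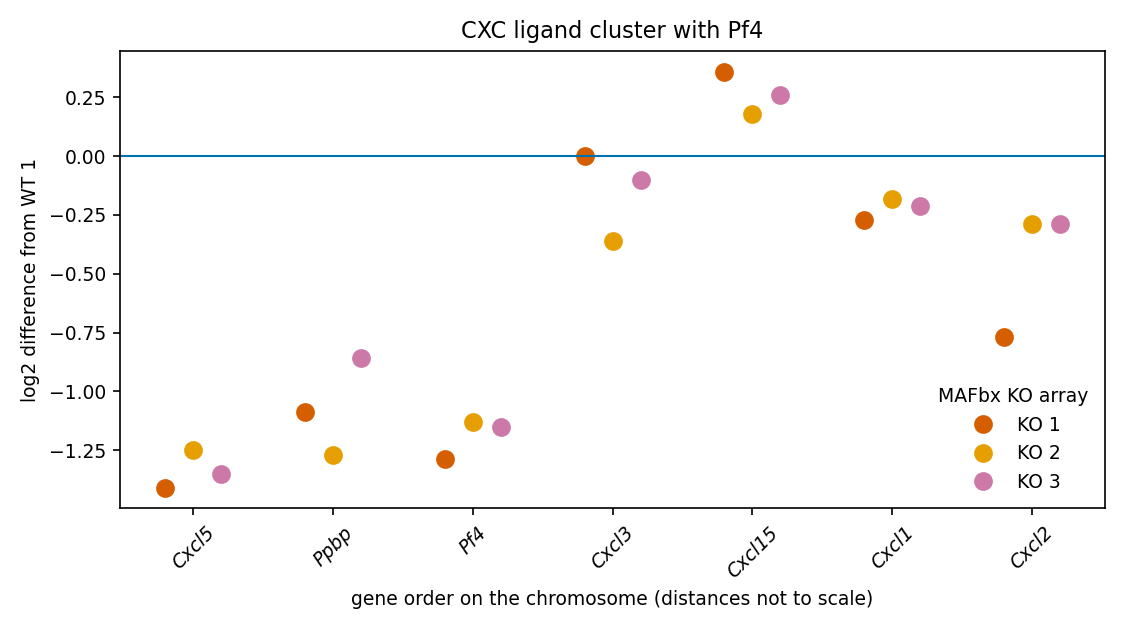
Log2 difference of each MAFbx KO array from WT 1 (y axis) for the 7 CXC genes of the chromosome 5 cluster in gene order (x axis, distances not to scale). Cxcl5, Ppbp and Pf4 lie between -0.86 and -1.41, and the other genes lie closer to 0, with Cxcl2 at -0.77 on KO 1. Cxcl2, Cxcl3 and Cxcl15 lay below the filter level on every array, as did the KO values of Cxcl5.

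The remaining CXC ligands on the array showed no gap of that size. Cxcl13, which guides B cells, read 5.10, 5.39 and 4.74 in the KO hearts, against 5.18 in the WT heart. Cxcl17, a mucosal chemokine, read 5.57, 5.80 and 6.01 in the KO hearts, against 5.77 in the WT heart. The interferon-induced Cxcr3 ligand Cxcl11 read 4.14, 3.89 and 4.01 in the KO hearts, against 3.84 in the WT heart, all below the filter level. Over the 6 ligands outside the described set, 3 were tested, 0 passed the adjusted threshold, and their median log2 difference was -0.10.

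Promoter sequences are shown for Pf4, for the neutrophil attractants Cxcl1 and Cxcl2 and for the Cxcr3 ligands, because NF-kB and interferon are the known inducers of the last 4 and the letters show where their motifs lie. Of these 5 genes only Pf4 had an interval clear of 0. RefSeq promoters (GRCm38.p6) were found for 8 of the 10 ligands, not for Cxcl5 and Cxcl16. Each run is the 250 bases before the annotated start, 5′ to 3′ on the gene's own strand. Capitals mark matches on either strand to a kappaB pattern, GGGANNNNCC, and to an interferon-stimulated response element (ISRE) pattern, GAAANNGAAA.
Cxcl1, chr5:90890995-90891244, plus strand: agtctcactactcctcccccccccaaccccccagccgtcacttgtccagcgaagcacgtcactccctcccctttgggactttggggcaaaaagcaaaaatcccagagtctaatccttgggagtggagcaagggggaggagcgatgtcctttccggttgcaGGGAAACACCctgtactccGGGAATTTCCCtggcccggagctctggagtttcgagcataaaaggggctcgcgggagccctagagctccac
Cxcl2, chr5:90903649-90903898, plus strand: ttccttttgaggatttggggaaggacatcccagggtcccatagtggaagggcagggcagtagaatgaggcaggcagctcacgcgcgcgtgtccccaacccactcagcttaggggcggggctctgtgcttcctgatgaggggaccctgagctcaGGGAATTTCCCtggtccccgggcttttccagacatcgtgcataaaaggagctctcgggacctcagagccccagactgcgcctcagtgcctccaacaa
Pf4, chr5:90772185-90772434, plus strand: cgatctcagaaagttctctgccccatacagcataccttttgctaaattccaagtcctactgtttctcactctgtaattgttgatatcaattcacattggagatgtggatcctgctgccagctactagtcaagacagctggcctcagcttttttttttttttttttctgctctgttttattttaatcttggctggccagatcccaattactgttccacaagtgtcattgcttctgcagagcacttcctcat
Cxcl9, chr5:92328080-92328329, minus strand: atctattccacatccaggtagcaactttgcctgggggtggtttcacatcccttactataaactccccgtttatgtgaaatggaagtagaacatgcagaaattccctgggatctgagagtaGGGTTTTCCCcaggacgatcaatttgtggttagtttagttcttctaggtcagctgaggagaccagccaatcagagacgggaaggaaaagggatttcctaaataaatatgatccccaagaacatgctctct
Cxcl10, chr5:92348890-92349139, minus strand: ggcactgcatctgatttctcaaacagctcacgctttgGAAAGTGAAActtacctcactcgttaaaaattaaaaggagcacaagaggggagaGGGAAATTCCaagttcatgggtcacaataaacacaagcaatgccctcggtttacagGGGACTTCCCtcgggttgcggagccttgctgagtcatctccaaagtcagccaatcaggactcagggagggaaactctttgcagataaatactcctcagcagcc

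Cxcl1 and Cxcl2 carried the same 11 letters, GGGAATTTCCC, in which the kappaB pattern matches on both strands, beginning 71 and 97 bases before the start. In Cxcl1 a further match, GGGAAACACC, began at 90 bases. Cxcl10 held an ISRE match at 213 bases and kappaB matches at 159 and 103 bases, the last of them on both strands, and Cxcl9 had 1 kappaB match, at 130 bases on the opposite strand. No match to either pattern lay in these windows of Pf4, Cxcl12 and Cx3cl1, and Cxcl14 had 1 ISRE match. The kappaB pattern thus occurred in 4 of 8 ligand promoters, against 17.6% of 32851 promoters of this length, and the ISRE pattern in 2 of 8, against 2.98%. A match describes letters and does not show binding. Of the ligands with a kappaB match, Cxcl1 and the dim Cxcl2 read lower on every KO array by less than 1, Cxcl10 was divided between arrays and Cxcl9 overlapped WT.

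The receptors of these ligands were measured on the same arrays, and 0 of the 7 tested passed the adjusted threshold. Cxcr6, the receptor for Cxcl16, read 5.01, 5.43 and 5.17 in the KO hearts, against 6.04 in the WT heart, a log2 difference of -0.84 (SE 0.21, limma adjusted p = 0.530). Cx3cr1, the fractalkine receptor of monocytes and macrophages, read 6.51, 6.67 and 7.17 in the KO hearts, against 7.40 in the WT heart (log2 difference -0.62, SE 0.27, limma adjusted p = 0.880). Both receptors were lower on every KO array, although their ligands Cxcl16 and Cx3cl1 overlapped WT.

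Cxcr4, the Cxcl12 receptor, read 7.51, 7.21 and 7.92 in the KO hearts, against 7.85 in the WT heart. Ackr3, a scavenger of Cxcl12, read 7.35, 7.30 and 7.16 in the KO hearts, against 6.98 in the WT heart, and was the 1 receptor with all KO arrays above WT. Its log2 difference was 0.29 (SE 0.18, limma adjusted p = 0.923). Cxcr2, the receptor for the neutrophil attractants, read 3.71, 3.54 and 3.82 in the KO hearts, against 4.14 in the WT heart, below the filter level throughout. Cxcr3 (-0.13), Cxcr1 (0.03) and the scavenger Ackr1 (0.0033) gave log2 differences near 0, and Cxcr5 was below the filter level with 3.62, 2.98 and 3.51 in KO hearts, against 3.42 in the WT heart.

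Among 12 tested genes of the cytokine and NF-kB inputs to the neutrophil attractants, 0 passed the adjusted threshold and 5 were lower at an unadjusted limma p under 0.05 (4.05% of all genes). In all 8 lay below WT on every KO array and 1 above, against 24.6% and 23.9% of all genes, with a median log2 difference of -0.30. Il1b, a cytokine that induces these ligands, read 4.73, 5.00 and 5.11 in the KO hearts, against 5.62 in the WT heart. Log2 differences were -0.78 for the adaptor Myd88, -0.76 for the IL-17 receptor subunit Il17ra and -0.90 for the TNF receptor Tnfrsf1b. Their limma adjusted p ran from 0.441 to 0.648. Nfkbia, which encodes an inhibitor of NF-kB, was the 1 gene above WT on every KO array, at 0.44. Smaller differences were those of Tnf (-0.14), Relb (-0.07) and Traf6 (-0.04).

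The 15 tested genes of the interferon-gamma axis, which drives Cxcl9 and Cxcl10, had a median log2 difference of 0.10. Of these 3 lay below and 8 above WT on every KO array, against 24.6% and 23.9% of all genes. With limma 0 passed the adjusted threshold, and at an unadjusted p under 0.05 there were 0 lower and 2 higher, against 4.05% and 1.68% of all genes. Iigp1 and Gbp3, interferon-induced GTPases, gave 0.69 and 0.58, Socs1, a feedback inhibitor of the pathway, 0.38, and Ciita, the activator of MHC class II genes, -0.32. On KO 3, where Cxcl9 and Cxcl10 both stood 0.50 above WT, the median of the axis was 0.10, and it was 0.13 and 0.07 on KO 1 and KO 2.

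Among 9 tested enzymes and inhibitors that process chemokines, 0 passed the adjusted threshold. The sheddases Adam10 and Adam17, which release Cxcl16 and Cx3cl1, gave log2 differences of -0.03 and -0.13, with the WT array inside the KO range for Adam10. Mmp2, a matrix metalloproteinase that trims Cxcl12, read 9.25, 9.60 and 9.98 in the KO hearts, against 8.61 in the WT heart, a log2 difference of 1.00 (SE 0.28, limma adjusted p = 0.564). Timp1, the metalloproteinase inhibitor, gave -2.85 (SE 0.62, limma adjusted p = 0.411), Mmp9 -0.52 and Timp3 0.28.

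**Figure D5:**
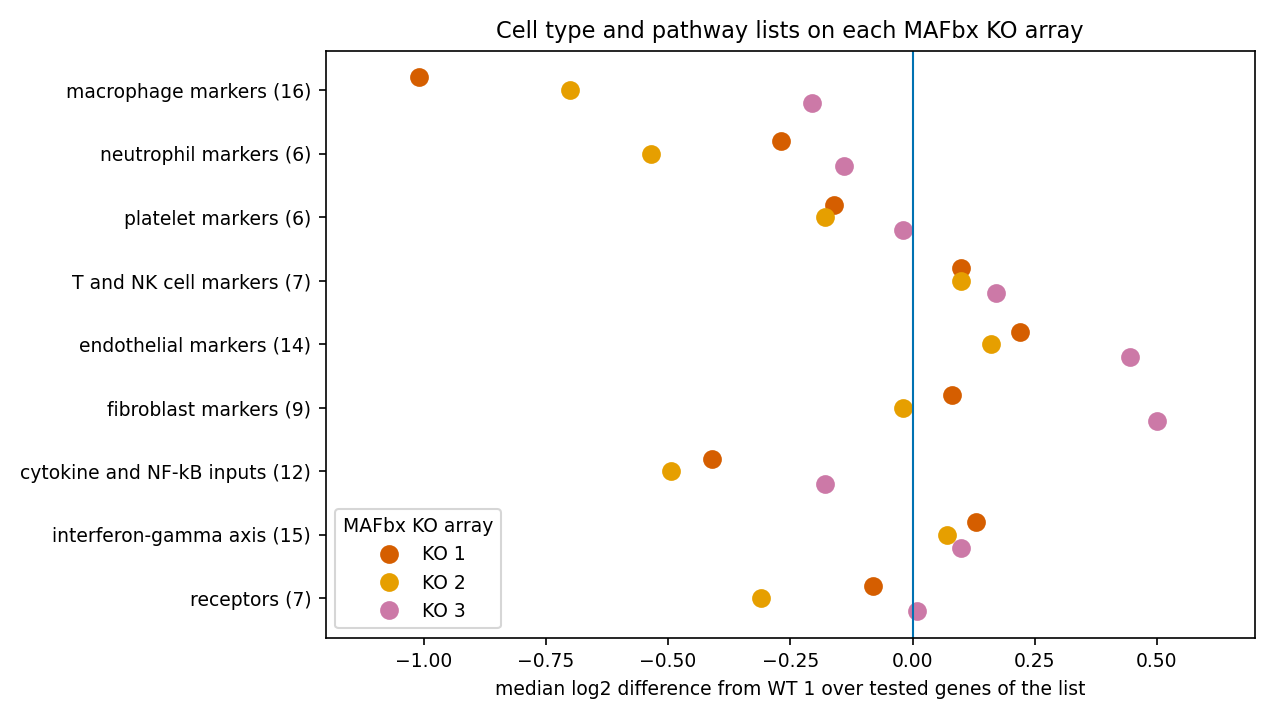
Median log2 difference from WT 1 (x axis) on each MAFbx KO array for lists of cell type markers and pathway genes (y axis, number of tested genes in brackets). Macrophage markers lie farthest below WT on KO 1 and KO 2 (-1.01 and -0.70) and at -0.20 on KO 3.

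Markers of the cells that make or follow these ligands were read on the same arrays. Macrophage markers, 16 of 16 tested, had a mean level of 7.33, 7.42 and 7.85 on the KO arrays, against 8.25 on the WT array. Of these 11 lay below WT on every KO array, against 24.6% of all genes, and the median log2 difference was -0.59. With limma 7 were lower at an unadjusted p under 0.05, against 4.05% of all genes, and 0 passed the adjusted threshold. The median gap of the list was narrower on KO 3 (-0.20) than on KO 1 and KO 2 (-1.01 and -0.70). Ccr2, Itgam, Cd68 and Fcgr1 had the largest differences of the list, -2.02, -1.59, -1.30 and -1.21. Cd14, Cd163, Mertk, C1qc and Ms4a7 did not lie below WT on every KO array. These gave 0.04, 0.04, -0.21, -0.30 and -0.35. The part of macrophage RNA in the ligand values was not tested.

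Neutrophil markers were largely dim: of 16 on the array 10 were below the filter, among them the defining genes Ly6g, Ngp, Ltf, Retnlg and S100a8. The 6 tested had mean levels of 5.52, 5.49 and 5.58 on the KO arrays, against 5.97 on the WT array, with 3 below WT on every KO array, against 24.6% of all genes (Lcn2 at -1.19, Csf3r at -0.68 and Mmp9 at -0.52). On KO 2 Csf3r read 4.58, under the filter level. S100a9, an abundant neutrophil protein, read 5.23, 5.11 and 5.56 in the KO hearts, against 5.50 in the WT heart. Camp and Mpo gave log2 differences of -0.06 and 0.03, with the WT array inside the KO range. Lcn2 is also made by cells other than neutrophils.

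The platelet chemokines Pf4 and Ppbp can be set beside other platelet markers. Itga2b, Gp5, Gp9, Treml1 and Tubb1 gave log2 differences of -0.12, -0.05, -0.19, -0.02 and 0.08, and Clec1b was below the filter level. Gp9 was the 1 of these 5 tested genes that lay below WT on every KO array, against 24.6% of all genes. Over the 6 tested members, Ppbp included, the mean level was 5.71, 5.68 and 5.92 on the KO arrays, against 6.00 on the WT array.

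T and NK cell markers, which would mark the cells that Cxcl9 and Cxcl10 attract, were dim as well, with 7 of 12 tested and none above 5.93 on any array. Their mean level was 5.25, 5.36 and 5.35 on the KO arrays, against 5.20 on the WT array. Cd28, Cd3e and Cd3g each gave a log2 difference of 0.22 and Cd4 gave -0.22, and 0 passed the adjusted threshold. Endothelial markers, for the cells that carry Cx3cl1, had a median log2 difference of 0.25 over 14 tested genes, with 6 above and 0 below WT on every KO array, against 23.9% and 24.6% of all genes. With limma 0 passed the adjusted threshold and 1, Ramp2, was higher at an unadjusted p under 0.05, against 1.68% of all genes. Ramp2 gave 0.48, Esam 0.42, Kdr 0.37 and Tie1 0.35. For other markers of the list the WT array lay inside the KO range. Of these, Pecam1 gave 0.08, Cdh5 0.20, Emcn 0.11, Vwf 0.03, Eng -0.07, Cldn5 0.20, Flt1 0.23 and Robo4 0.27.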

How the data were processed

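Mouse heart samples, 3 labelled MAFbx KO and 1 labelled WT, taken 1 week after TAC, were profiled on 4 arrays. The deposited values are log2 signals that the authors made with Affymetrix Expression Console and RMA, per the submitters' processing notes; RMA equalises the array distributions and compresses dim differences. Their versions are not stated. Genes were named from 21789 of 35556 probe sets with 1 symbol (the brightest of several), and genes with a 4-array mean under the 25th percentile (4.71) were left out, leaving 14914.

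KO and WT were set against each other with limma (version 3.58.1, in R 4.3.3; lmFit, eBayes, two-sided, KO minus WT, Benjamini-Hochberg over all genes, threshold 0.05), with 2 residual and 5.04 prior degrees of freedom; the WT array is assumed to vary like the KO arrays. The fit was also run on simulated data with known changes and normal noise. All 4 simulated arrays shared the KO spread, so that run cannot check the assumption about the WT array. With 1 array against 3, the smallest p an exact permutation test allows is 0.25, and the number of arrays limits precision. Named are the 10 ligands, Fbxo32, Xist, Eif2s3y, other CXC ligands and receptors. Each other list gave up to 4 tested genes of largest difference with all KO arrays on one side of WT. S100a9, Adam10, Adam17 and the platelet genes were added after their values were seen. So were the 5 dim neutrophil genes, Pdgfra, Tcf21 and the 3 collagen genes. Camp, Mpo, Nfkbia, Tnf, Relb, Traf6 and the macrophage and endothelial markers that overlapped WT were also added then. The members and lists (other CXC ligands, receptors, cytokine and NF-kB inputs, interferon-gamma axis, processing enzymes, and markers of neutrophils, platelets, T and NK cells, macrophages, endothelium, fibroblasts, pericytes and cardiomyocytes) were chosen with earlier results of these data known. Alternatives changed the filter, probe set rule, normalization, variance model, threshold, KO arrays and a covariate for Xist.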

Additional observations from a re-analysis of the deposited data

How the results depend on the processing

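No ligand passed an adjusted limma p of 0.05 under any of the 13 alternatives; the lowest value was 0.0779, for Cxcl5 with robust limma. Cxcl5 was at -1.38 to -1.30 in the 11 alternatives that tested it, with adjusted p from 0.0779 to 0.997, and Pf4 at -1.22 to -1.14 in the 12 that tested it, with adjusted p from 0.126 to 0.997. With Xist as a covariate, which sets KO 3 against WT 1, Cxcl10, Cxcl16 and Cx3cl1 were reversed, at 0.50, 0.18 and 0.08. The count of all genes called, 1 in the comparison reported, was 11 at an adjusted p under 0.1, 2 with the filter at the median, 7 with the dimmest probe set, 7 with an intensity trend and 9 with robust limma. It was 0 with no filter, with renewed quantile normalization, with the Xist covariate and without each KO array in turn (0 to 0); beyond the arrays left out, the cause was not tested. Ligands with all KO arrays below WT numbered 5 to 8 of 9 without each KO array in turn, with 8 when KO 3 was left out. Cxcl5, which met the filter only through its WT value, is among them. No paired analysis was possible because the genotypes share only replicate number 1. Signals under 4.71, among them Cxcl2 and the KO values of Cxcl5, are the least certain.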

Other observations

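Fibroblast markers, for the stromal cells that make Cxcl12, gave a median log2 difference of 0.18 over 9 tested genes, with 4 above and 1 below WT on every KO array (23.9% and 24.6% of all genes) and 0 past the adjusted limma threshold or an unadjusted limma p under 0.05. Fbln1, Lum, Dpt and Dcn, which encode matrix proteins, gave 0.56, 0.55, 0.35 and 0.28. The collagen genes Col1a1, Col3a1 and Col1a2, for which the WT array lay inside the KO range, gave -0.62, -0.56 and -0.46, Pdgfra gave -0.17 and Tcf21 0.18. The mean level of the list was 9.46, 9.73 and 10.24 on KO 1, KO 2 and KO 3, against 9.80 on WT 1. Cxcl12 itself stood at -0.19. Pericyte markers had a median of 0.16 over 6 tested genes, with 3 above and 1 below, and 0 past either threshold. Abcc9 gave 0.48, Rgs5 0.28, Cspg4 -0.27 and Kcnj8 0.19. Cardiomyocyte markers had a median of 0.10 over 11 tested genes, with 4 above and 1 below and 0 past either threshold. Ryr2, the calcium release channel, gave 0.42, Myl3 0.19, Actc1 -0.16 and Myh6 0.14.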
